A study of Mus musculus with 16 samples.

Results

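Transcripts of 10 genes that neutrophils are known for were followed across the hearts of a mouse model of pressure overload. They were the alarmins S100a8 and S100a9, the granule protein genes Lcn2, Ngp, Camp and Mmp8, the secreted protein gene Retnlg, the cytokine gene Il1b and the receptor genes Cxcr2 and Csf3r. The members were the rows of the normalized count table whose Ensembl identifier maps to these symbols, and all 10 were found among 22372 protein-coding genes. The members were chosen by their known link to neutrophils and selected on their measured levels in these same 16 libraries, whose differences between the groups were already known. Their levels and differences are therefore a description and no independent evidence.

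Male C57BL/6J mice, aged 10 to 12 weeks when the experiment began, underwent transverse aortic constriction (TAC), which narrows the aortic arch and overloads the left ventricle, or a sham operation without the constriction. Each operation was combined with THZ1, a covalent inhibitor of the transcriptional kinases CDK7, CDK12 and CDK13, or with its vehicle of DMSO and dextrose in water, so that the groups were Sham-Veh and TAC-Veh under vehicle and Sham-THZ1 and TAC-THZ1 under the inhibitor. The inhibitor was given intraperitoneally on postoperative days 1 to 60, in 2 daily doses of 10 mg/kg as the labels state it. RNA came from a small piece of whole ventricle, and each group held 4 libraries. The labels do not state that each library came from a mouse of its own, so p-values measure the spread between these samples. THZ1 was given to the whole animal, and RNA was measured in the ventricle alone.

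Neutrophils are short-lived white blood cells that mature in the bone marrow under the growth factor G-CSF, whose receptor is encoded by Csf3r, and are drawn into tissue by chemokines that bind Cxcr2. S100a8 and S100a9 proteins pair to form calprotectin, the most abundant protein complex of the neutrophil cytoplasm, which is released on injury and acts on Toll-like receptor 4. Granule proteins are made in waves: those of the primary granules, such as myeloperoxidase and elastase, in early precursors, and those of the secondary and tertiary granules, such as lactoferrin, Ngp, Camp and Mmp8, in later ones. Lcn2 and Il1b are also made by other cells, Lcn2 by stressed cardiomyocytes and epithelium and Il1b by monocytes and macrophages.

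In the mm9 build (NCBIM37), S100a8 lies at chr3:90472993-90473956 on the plus strand and S100a9 at chr3:90496554-90499643 on the minus strand, with 22597 bases between them. Ngp (chr9:110322254-110325514, plus) and Camp (chr9:109749889-109751970, minus) lie 570283 bases apart, and Mmp8 lies on the same chromosome at chr9:7558429-7568486. Counts were taken over the exons of each gene. Below are the 250 bases before the transcription start of the alarmin pair and of the 3 granule genes with the fewest reads outside TAC-THZ1, from RefSeq on GRCm38.p6, 5′ to 3′ on the strand of the gene. They are chr3:90668821-90669070 (plus), chr3:90695722-90695971 (minus), chr9:110419558-110419807 (plus), chr9:109849457-109849706 (minus) and chr9:7558179-7558428 (plus). Capitals mark the letters TTNNGNAA on either strand, a core to which C/EBP factors of the granulocyte lineage are known to bind, and the TATA box letters TATAAA.

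S100a8: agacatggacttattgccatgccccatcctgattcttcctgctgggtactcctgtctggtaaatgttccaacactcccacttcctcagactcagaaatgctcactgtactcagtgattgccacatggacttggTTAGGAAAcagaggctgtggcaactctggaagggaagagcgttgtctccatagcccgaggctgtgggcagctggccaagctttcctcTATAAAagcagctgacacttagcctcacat
S100a9: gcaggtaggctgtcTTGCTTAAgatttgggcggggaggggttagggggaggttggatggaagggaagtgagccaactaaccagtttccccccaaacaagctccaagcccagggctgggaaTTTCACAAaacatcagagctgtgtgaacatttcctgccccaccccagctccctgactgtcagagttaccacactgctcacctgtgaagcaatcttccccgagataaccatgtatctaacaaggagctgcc
Ngp: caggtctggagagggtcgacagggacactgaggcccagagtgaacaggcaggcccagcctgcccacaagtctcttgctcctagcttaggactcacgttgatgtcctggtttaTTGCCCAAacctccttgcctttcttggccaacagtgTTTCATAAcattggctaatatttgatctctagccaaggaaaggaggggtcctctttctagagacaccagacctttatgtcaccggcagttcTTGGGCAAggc
Camp: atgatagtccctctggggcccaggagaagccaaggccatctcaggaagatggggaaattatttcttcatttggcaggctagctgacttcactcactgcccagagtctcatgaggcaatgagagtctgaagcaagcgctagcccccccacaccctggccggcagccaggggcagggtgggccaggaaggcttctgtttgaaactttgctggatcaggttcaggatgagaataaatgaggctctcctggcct
Mmp8: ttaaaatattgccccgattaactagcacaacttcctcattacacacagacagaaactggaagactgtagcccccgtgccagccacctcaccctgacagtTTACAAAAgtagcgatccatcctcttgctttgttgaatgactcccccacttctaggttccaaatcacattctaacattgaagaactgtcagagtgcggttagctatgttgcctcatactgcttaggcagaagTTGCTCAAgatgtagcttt

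The TTNNGNAA letters were found in the windows of 7 of the 10 genes (S100a8, S100a9, Lcn2, Ngp, Retnlg, Il1b and Mmp8) and in 36.8% of 32817 RefSeq promoter windows of the same length. The letters AGGAAG, a core of PU.1 sites that can overlap the first motif, were in the windows of 6 of the 10 genes and in 29.5% of all windows. TATAAA was in those of S100a8 and Il1b, beginning 30 and 31 bases before the start, and in 12.4% of all windows. GGGNNTTCC, a form of the NF-kB site, was in none of the 10 windows and in 4.97% of all windows. A match is only a match of letters, and both strands were read.

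Sequencing depth was 21.4 to 35.8 M reads in genes per library, with a median of 28.2 M, and the cardiomyocyte marker sum was at least 799799 normalized counts in every library. A normalized count is the number of reads divided by a size factor of the library, which ranged from 0.749 to 1.40, so that 1 normalized count is close to 1 read. TAC-THZ1 replicates 1 and 3 were the highest libraries of their group for every member. For S100a8, S100a9, Retnlg and Cxcr2 the values were graded, with the largest log-scale gap between replicates 2 and 4. Replicate 2 of S100a8 and S100a9, at 321 and 488 normalized counts, lay above every library outside TAC-THZ1, at most 125 and 235. The differences that involve TAC-THZ1 are followed by their values without replicates 1 and 3, a choice made after seeing the data. That choice leaves out the group's highest libraries for the members, so it lowers their differences by construction. The same holds for every other gene for which these were the group's highest libraries. In whole tissue, more cells of a type and more RNA per cell cannot be told apart.

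S100a8 was measured in Sham-Veh at 8.49, 15.2, 15.0 and 13.8 normalized counts and in Sham-THZ1 at 15.5, 125, 24.0 and 12.2. It stood at 96.4, 50.1, 22.8 and 17.0 in TAC-Veh and at 2840.5, 321, 1048 and 56.4 in TAC-THZ1, listed as replicates 1 to 4. TAC-THZ1 replicate 1 was the highest library of all and replicate 3 the next, while replicate 4 of the same group lay below replicate 1 of TAC-Veh. The mean was 1066 ± 1255 (SD, n = 4) in TAC-THZ1 and 46.6 ± 36.2 in TAC-Veh, against 44.3 ± 54.3 for the Sham-THZ1 group and 13.1 ± 3.17 for the Sham-Veh group.

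S100a9, the partner of S100a8 in calprotectin, was at 6.36, 24.9, 27.4 and 18.4 normalized counts in Sham-Veh and at 38.2, 235, 29.4 and 30.4 in Sham-THZ1. In TAC-Veh it was at 108, 81.5, 33.7 and 17.9, and in TAC-THZ1 at 3518, 488, 1606 and 68.3. The order of the libraries at the top was that of S100a8, and Sham-THZ1 replicate 2 was again far above the other sham libraries. The ratio of S100a8 to S100a9 normalized counts was 0.400 to 1.33 over the 16 libraries, with a median of 0.667. Over TAC-THZ1 alone the ratio was 0.652 to 0.826 although the level of S100a8 ranged over 50.4-fold between replicates 1 and 4.

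**Figure D1:**
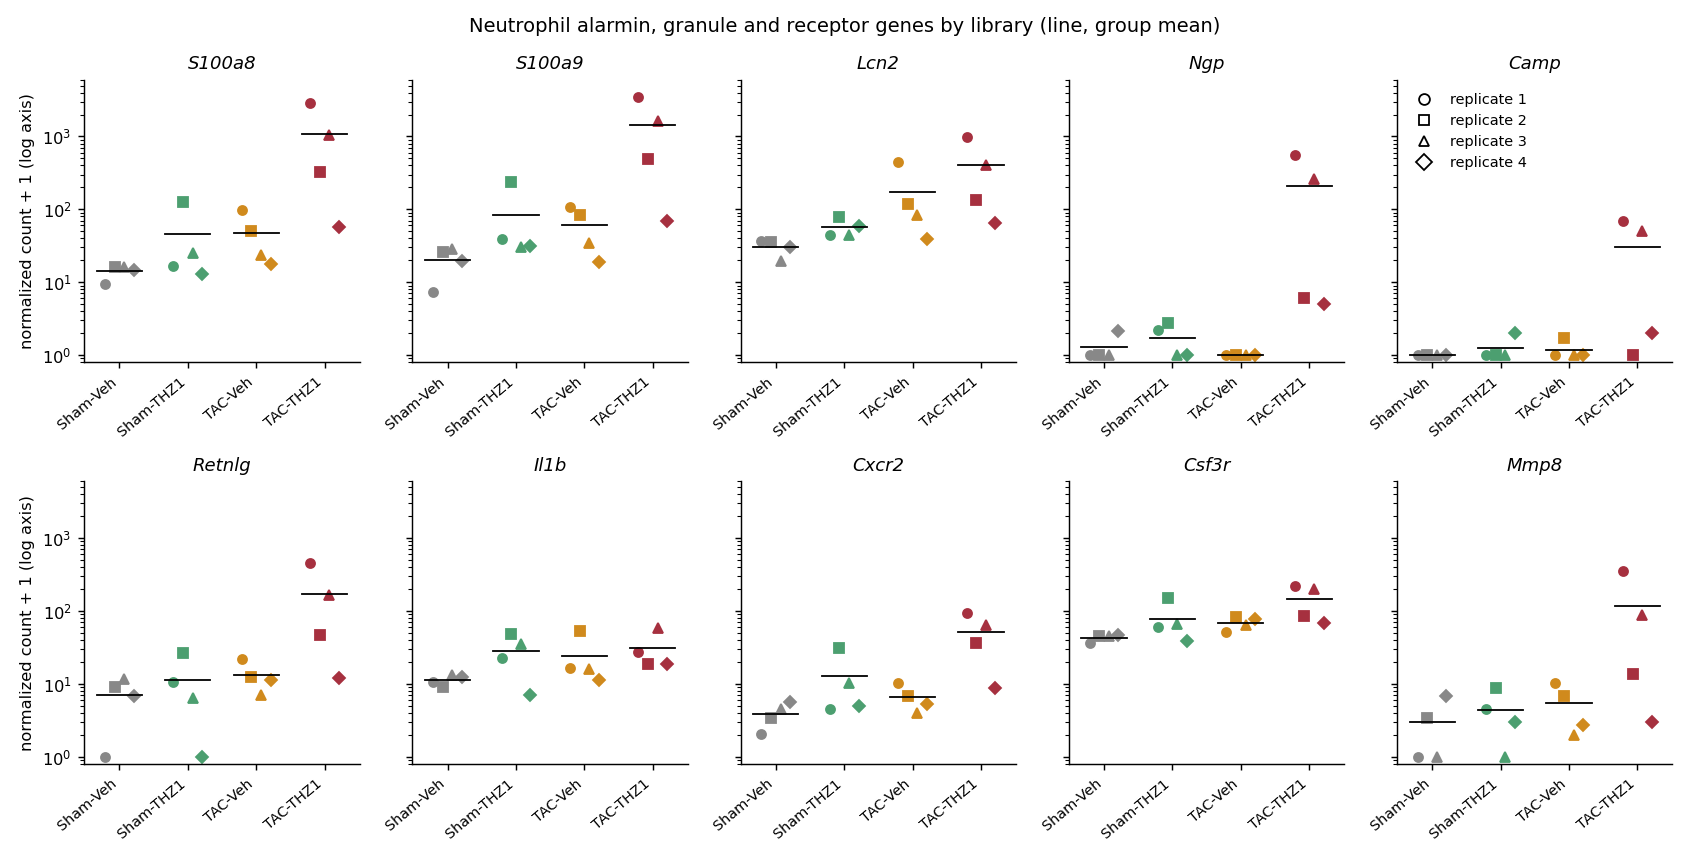
Normalized count plus 1 on a log axis for each of the 10 genes, with 1 point per library, the marker shape giving the replicate number and the line the group mean of 4 libraries. For 9 of the 10 genes TAC-THZ1 replicate 1 is the highest point, and the 4 TAC-THZ1 points of S100a8 run from 56.4 to 2840.5.

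Ngp and Camp, which encode proteins of the secondary granules, were close to absent outside TAC-THZ1. Ngp had 515 reads in TAC-THZ1 replicate 1 (562 normalized counts) and 320 in replicate 3 (260.4), but 4 reads each in replicates 2 and 4. Elsewhere it had 1 read in Sham-Veh, 3 in Sham-THZ1 and 0 in TAC-Veh. Since 3 reads over the TAC-Veh group would still pass for 0, Ngp was at least 316-fold higher in TAC-THZ1 by the pooled normalized counts. Only the counting error of the 0 reads in TAC-Veh is covered by that bound. Replicates 2 and 4 of TAC-THZ1 held 8 of the reads, and on these libraries alone the same ratio was 6.58-fold. The counting error of those 8 reads is not covered, so that ratio is no lower bound.

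Camp, the gene of the antimicrobial peptide cathelicidin, had 63, 0, 61 and 1 reads in TAC-THZ1 replicates 1 to 4, against 0 in Sham-Veh, 1 in Sham-THZ1 and 1 in TAC-Veh. By the same floor it was at least 44.3-fold higher in TAC-THZ1 than in Sham-Veh. Without replicates 1 and 3 it had 1 read in TAC-THZ1, which allows no such bound. Mmp8, the neutrophil collagenase, was at 358, 12.7, 86.3 and 1.98 normalized counts in TAC-THZ1 and at 9.41, 5.72, 0.991 and 1.70 in TAC-Veh. It was at 0 to 5.74 in Sham-Veh and 0 to 7.78 in Sham-THZ1. Replicates 1 and 3 of TAC-THZ1 thus held 98.9% of the group's summed normalized counts of Ngp, 99.2% of those of Camp and 96.8% of those of Mmp8.

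Lcn2, which encodes the siderophore-binding protein neutrophil gelatinase-associated lipocalin, had a graded pattern. It was at 36.1, 34.5, 18.6 and 29.9 normalized counts in Sham-Veh and at 44.1, 76.9, 44.1 and 57.7 in Sham-THZ1, with no overlap between those groups. In TAC-Veh it was at 451, 117, 82.2 and 38.3, and in TAC-THZ1 at 992, 135, 411 and 64.3. All TAC-Veh libraries lay above all Sham-Veh libraries, and TAC-Veh and TAC-THZ1 overlapped. Its second highest library was TAC-Veh replicate 1, unlike the 8 genes whose top pair was TAC-THZ1 replicates 1 and 3.

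Retnlg, which encodes a resistin-like protein of neutrophils, was at 449.9, 45.8, 166 and 10.9 normalized counts in TAC-THZ1 and at 21.2, 11.4, 5.94 and 10.2 in TAC-Veh. It was at 0, 8.02, 10.6 and 5.74 in Sham-Veh and at 9.54, 25.9, 5.34 and 0 in Sham-THZ1. The lowest TAC-THZ1 library was within the range of TAC-Veh.

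The receptor genes were more even. Cxcr2, the receptor of the chemokines encoded by Cxcl1, Cxcl5 and Ppbp, was at 92.8, 35.6, 63.5 and 7.92 normalized counts in TAC-THZ1 and at 9.41, 5.72, 2.97 and 4.26 in TAC-Veh. In Sham-THZ1 it was at 3.58, 30.2, 9.35 and 4.05, and in Sham-Veh at 1.06 to 4.60. Csf3r was detected well in all libraries. It was at 222, 84.0, 203 and 68.3 in TAC-THZ1 and at 50.6, 81.5, 62.4 and 75.8 in TAC-Veh, against 58.4, 150.4, 65.4 and 37.5 for Sham-THZ1 and 35.0, 44.1, 44.2 and 46.0 for Sham-Veh. Csf3r overlapped between TAC-Veh and TAC-THZ1, where replicate 4 was within the range of TAC-Veh.

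Il1b, which encodes the cytokine interleukin-1 beta, stood apart from the other members. It was at 26.2, 17.8, 57.8 and 17.8 normalized counts in TAC-THZ1, where replicate 3 and not replicate 1 was the highest. It was at 15.3, 52.2, 14.9 and 10.2 in TAC-Veh and at 21.5, 47.5, 34.7 and 6.08 in Sham-THZ1, so that all 3 groups overlapped. Its Sham-Veh values of 8.02 to 12.4 lay below all TAC-THZ1 values. The gene Gm14047 overlaps Il1b on the other strand, and the counting was strand-specific.

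Per kilobase of exon, the mean levels in TAC-THZ1 were 2720.5 for S100a8, 2720.2 for S100a9, 277 for Retnlg, 174 for Lcn2, 171 for Ngp, 49.7 for Camp, 46.8 for Mmp8, 34.8 for Csf3r, 16.4 for Cxcr2 and 15.7 normalized counts for Il1b. Within the 4 TAC-THZ1 libraries, 3 of the steps in that order held in every library: S100a9 above Retnlg, Ngp above Camp, and Csf3r above Cxcr2. The step from Retnlg to Lcn2 held in 3 of 4 libraries, and the others in 2 or fewer, so the order of those neighbours varied between libraries. In Sham-Veh the order per kilobase was S100a9 at 36.9, S100a8 at 33.5, Lcn2 at 12.9, Csf3r at 10.2 and Retnlg at 10.0, followed by Il1b at 5.43 and by Cxcr2, Mmp8, Ngp and Camp below 1. The alarmin pair led in both groups.

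The members moved together over the libraries. Pearson's r of a member's log2 values with the mean of the other 6 members past the filter, over all 16 libraries, was 0.968 for S100a8, 0.965 for S100a9, 0.942 for Cxcr2, 0.920 for Csf3r, 0.903 for Retnlg, 0.802 for Lcn2 and 0.648 for Il1b. Without TAC-THZ1 replicates 1 and 3 the values over 14 libraries were 0.920 for S100a8, 0.907 for S100a9, 0.866 for Cxcr2, 0.797 for Csf3r, 0.766 for Retnlg, 0.546 for Lcn2 and 0.624 for Il1b. These are descriptions with no test, because the libraries share groups and the members were chosen for their pattern. Within Sham-THZ1, replicate 2 was the highest library for 9 of the 10 genes.

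The differences between groups were fitted with limma across the 13331 genes with at least 10 normalized counts in at least 4 libraries, on log2 of the normalized count plus 1, a scale that understates changes of low genes. Of the 10 members, 7 passed this filter, and Ngp, Camp and Mmp8 did not. Cxcr2 reached 10 normalized counts in exactly 4 libraries, 3 of them TAC-THZ1, so a difference was built into its passing. Since the members were chosen with these values known, the counts of called members are given beside the share of all genes and nothing is read from them. A gene counts as called at an adjusted p under 0.05 after Benjamini-Hochberg adjustment over all genes tested in the comparison.

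With constriction under vehicle (TAC-Veh against Sham-Veh), the log2 fold changes were 1.94 ± 0.71 (SE) for Lcn2, 1.47 ± 0.93 for S100a8, 1.45 ± 0.97 for S100a9, 1.23 ± 1.07 for Retnlg, 0.82 ± 0.55 for Il1b, 0.76 ± 0.68 for Cxcr2 and 0.65 ± 0.38 for Csf3r. Lcn2 alone was called, 1 of 7, where 21.4% of all genes tested were called higher and 45.0% in either direction. The call of Lcn2 was lost without TAC-Veh replicate 1, at a log2 fold change of 1.28, and also without TAC-Veh replicate 2 or Sham-Veh replicate 2, 3 or 4. S100a8, Lcn2 and Csf3r were the 3 members whose TAC-Veh libraries all lay above all Sham-Veh libraries, as did those of 18.2% of the genes past the filter.

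With THZ1 in constricted hearts (TAC-THZ1 against TAC-Veh), the log2 fold changes were 3.75 ± 0.97 for S100a9, 3.66 ± 0.93 for S100a8, 2.73 ± 1.07 for Retnlg, 2.60 ± 0.68 for Cxcr2, 1.10 ± 0.71 for Lcn2, 0.92 ± 0.38 for Csf3r and 0.47 ± 0.55 for Il1b. S100a8, S100a9 and Cxcr2 were called, 3 of 7, beside 15.1% of all genes called higher, 14.2% lower and 29.4% in either direction. Without TAC-THZ1 replicates 1 and 3 none of the 7 was called, and the log2 fold changes were 1.83 ± 0.85 for S100a8, 1.90 ± 0.93 for S100a9, 1.55 ± 0.75 for Cxcr2, 0.96 ± 1.12 for Retnlg, 0.19 ± 0.37 for Csf3r, -0.07 ± 0.65 for Il1b and -0.29 ± 0.65 for Lcn2. Every library of TAC-THZ1 lay above every library of TAC-Veh for Ngp, which did not pass the filter, and for 0 of the 7 members that did, beside 9.53% of all genes past it.

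**Figure D2:**
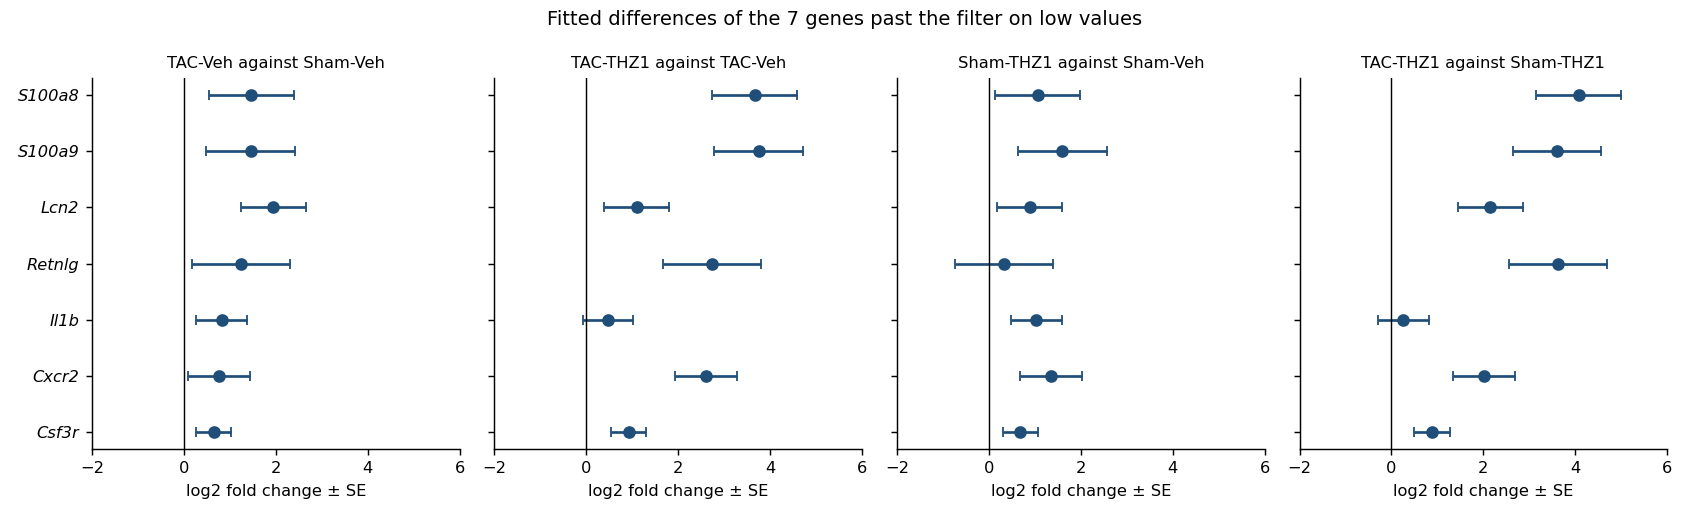
Log2 fold change with its SE from limma for the 7 genes past the filter, 1 panel per comparison, on the scale of log2(normalized count + 1). S100a8 and S100a9 lie at 3.66 and 3.75 for TAC-THZ1 against TAC-Veh, and the points for Sham-THZ1 against Sham-Veh lie between 0.34 and 1.60.

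With THZ1 in sham hearts (Sham-THZ1 against Sham-Veh), all 7 log2 fold changes were above 0, from 0.34 ± 1.07 for Retnlg to 1.60 ± 0.97 for S100a9, and none was called, beside 0.0225% of all genes called higher, 0.0450% lower and 0.0675% in either direction by limma. At an unadjusted p under 0.05, 448 of all genes were higher. Of the 7 members 0 passed that unadjusted threshold, and edgeR and DESeq2 on the recovered reads also called 0. Without Sham-THZ1 replicate 2 the values were 0.35 ± 0.92 for S100a8, 0.89 ± 0.97 for S100a9, 0.72 ± 0.78 for Lcn2 and -0.35 ± 1.10 for Retnlg. S100a9 and Lcn2 had all Sham-THZ1 libraries above all Sham-Veh libraries, as had 6.29% of the genes past the filter.

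With constriction under THZ1 (TAC-THZ1 against Sham-THZ1), the log2 fold changes were 4.07 ± 0.93 for S100a8, 3.63 ± 1.07 for Retnlg, 3.60 ± 0.97 for S100a9, 2.15 ± 0.71 for Lcn2, 2.01 ± 0.68 for Cxcr2, 0.88 ± 0.38 for Csf3r and 0.26 ± 0.55 for Il1b. The first 5 of these were called, beside 11.4% of all genes called higher and 24.2% in either direction. S100a8 alone kept its call without TAC-THZ1 replicate 1, and 0 of the 7 were called without replicates 1 and 3. The log2 fold changes were then 2.24 ± 0.85 for S100a8, 1.86 ± 1.12 for Retnlg, 1.76 ± 0.93 for S100a9, 0.96 ± 0.75 for Cxcr2, 0.77 ± 0.65 for Lcn2, 0.15 ± 0.37 for Csf3r and -0.28 ± 0.65 for Il1b. This comparison shares its TAC-THZ1 libraries with the one before it under constriction. The interaction, the THZ1 difference in TAC minus that in sham, was 2.61 ± 1.31 for S100a8, 2.15 ± 1.37 for S100a9 and 2.40 ± 1.51 for Retnlg, and limma called 0 of the 7 beside 10.0% of all genes called in either direction, 4.40% higher and 5.62% lower. At an unadjusted p under 0.05 also 0 of the 7 passed, and edgeR and DESeq2 called 0. The interaction without TAC-THZ1 replicates 1 and 3 was 0.77 ± 1.10 for S100a8, 0.30 ± 1.20 for S100a9 and 0.63 ± 1.45 for Retnlg.

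The other granule genes were mostly highest in the same libraries. Their sum was 10905, 4976, 8019 and 6002 normalized counts in TAC-THZ1 and 6742 to 9772 in TAC-Veh, so the groups overlapped. Ltf, which encodes lactoferrin of the secondary granules, was at 265, 0, 127 and 2.97 normalized counts in TAC-THZ1 and at most 2.59 in any other library. Cd177, a neutrophil surface protein, was at 128, 1.27, 24.4 and 0.990 in TAC-THZ1 and Chil3, a chitinase-like protein of myeloid cells, at 69.9, 3.82, 63.5 and 2.97. The defining surface marker Ly6g was at 9.83, 1.27, 2.44 and 1.98 in TAC-THZ1 and had 0 reads in the 12 libraries of the other groups. The primary granule genes stayed near 0 throughout, with Mpo at most 6.55 and Elane at most 3.25 normalized counts.

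Of 20 other granule genes, 19 had their highest library in TAC-THZ1 replicate 1 or 3, as had 15 of 19 other neutrophil receptor genes. Among all 13331 genes tested the share was 12.6%. The genes for the formyl peptide receptors belong here, with Fpr1 at 41.5, 6.37, 26.9 and 5.94 normalized counts in TAC-THZ1 and Fpr2 at 40.4, 2.55, 23.6 and 5.94, against at most 6.91 in any library of the other groups. Among the 20, 12 did not pass the filter on low values, and among the 19 receptor genes 6 did not, Fpr1 and Fpr2 among them. The share of 12.6% covers only genes past that filter, so it is not a like background for these counts. The 13 receptor genes past the filter had a median log2 fold change of -0.045 with THZ1 in TAC, against 0.0145 for all genes. The sum of the 19 was 3146, 1423, 2640 and 1492 normalized counts in TAC-THZ1 and 1798 to 2628 in TAC-Veh.

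Mmp9, the gelatinase of the tertiary granules, rose with THZ1 in constricted hearts, with a log2 fold change of 2.74 ± 0.49 and an adjusted p of 0.000943 by limma. It was at 10.6, 7.87, 11.9 and 18.7 normalized counts in TAC-Veh and at 219.5, 47.1, 144 and 32.7 in TAC-THZ1, with no overlap. Without TAC-THZ1 replicates 1 and 3 its log2 fold change was 1.66 ± 0.41, with an adjusted p of 0.0110. Unlike the alarmins, Mmp9 had lower values in TAC-Veh than in Sham-Veh, at a log2 fold change of -1.01 ± 0.49 that was not called (adjusted p = 0.106 by limma).

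Of the 8 granule genes past the filter, Mmp9 was the only one called higher with THZ1 in TAC, beside 15.1% of all genes. Anxa1, which encodes the anti-inflammatory protein annexin A1 and is also expressed by many other cells, fell by 1.10 on the log2 scale (SE 0.20, adjusted p = 0.000933 by limma). Anxa1 fell by 1.29 without TAC-THZ1 replicates 1 and 3 (adjusted p = 0.00286 by limma), and Ncf1 was called lower as well. With constriction under vehicle 4 of the 8 were called higher, beside 21.4% of all genes: Anxa1, Padi4, Lyz2 and Ncf1. Padi4, the enzyme that citrullinates histones in neutrophil traps, rose by 2.04 ± 0.34 (adjusted p = 0.000157 by limma) and was at 21.8 to 39.3 normalized counts in TAC-Veh against 4.24 to 7.22 in Sham-Veh. Macrophages also express Lyz2 and Ncf1. The median log2 fold change of the 8 was 0.71 with constriction and 0.14 with THZ1 in TAC, against -0.00302 and 0.0145 for all genes.

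**Figure D3:**
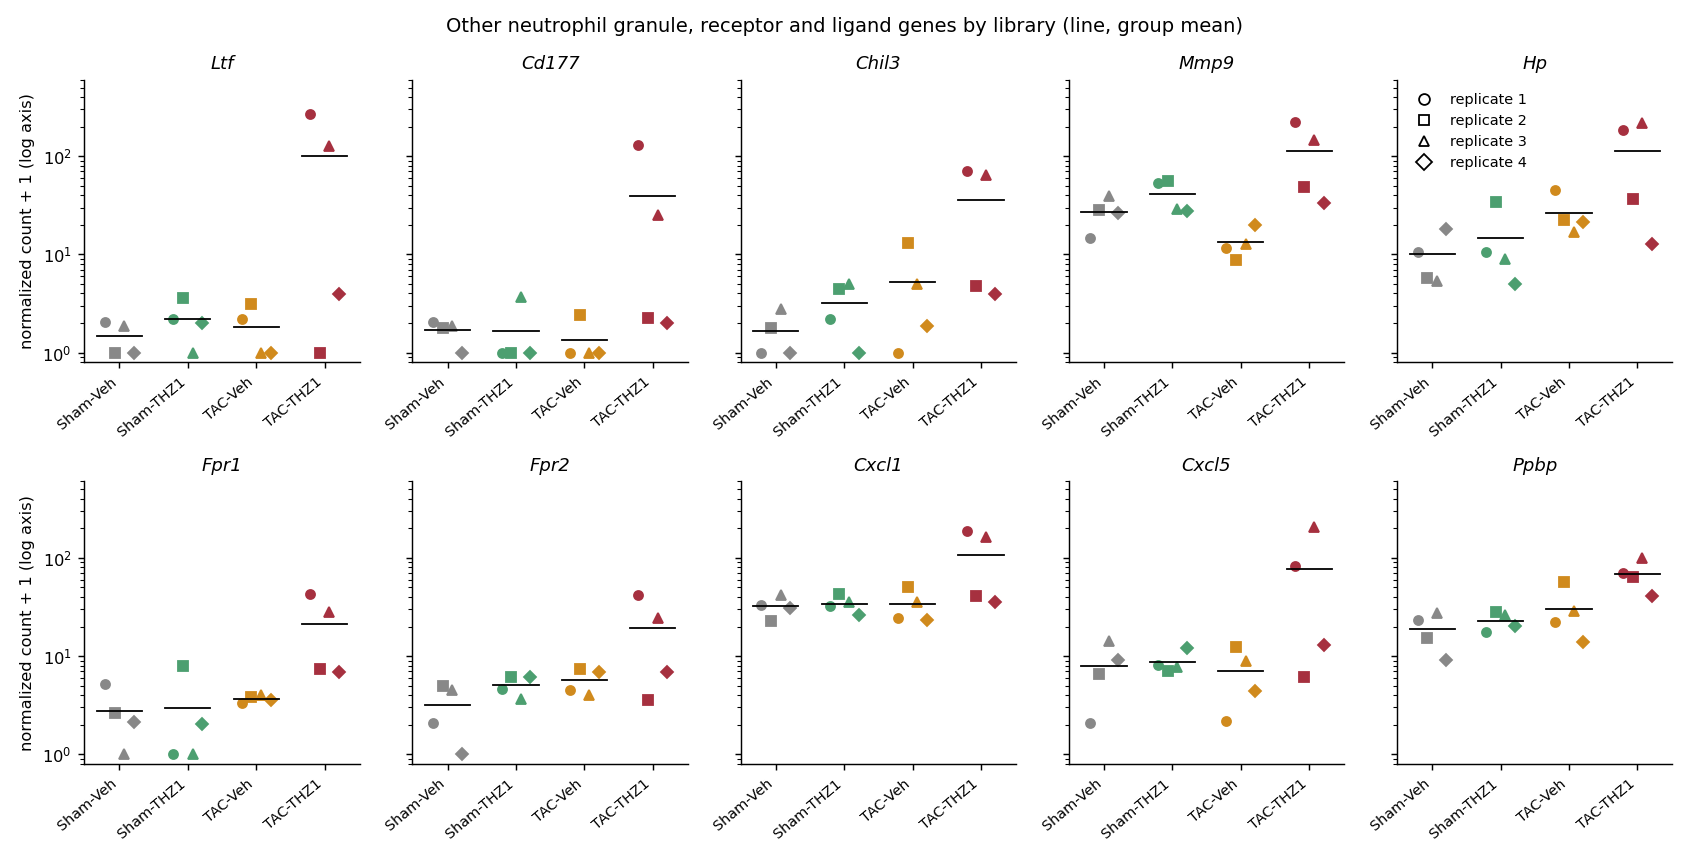
Normalized count plus 1 on a log axis for 10 further granule, receptor and chemokine genes, with marker shape for the replicate and a line at the group mean. TAC-THZ1 replicates 1 and 3 lie highest for Ltf at 265 and 127, for Cxcl1 at 188 and 164, and for Fpr1 at 41.5 and 26.9.

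Of 7 tested genes for ligands and growth factors of neutrophils, 3 were called higher with THZ1 in constricted hearts, beside 15.1% of all genes. All 3 are chemokine genes that encode ligands of Cxcr2. Another 7 of the 14 listed did not pass the filter, Cxcl2 and Cxcl3 among them. Cxcl1 was at 188, 39.5, 164 and 34.6 normalized counts in TAC-THZ1 and at 23.5, 50.1, 34.7 and 22.1 in TAC-Veh, a log2 fold change of 1.36 ± 0.45 (adjusted p = 0.0329 by limma). Cxcl5 was at 81.9, 5.09, 205 and 11.9 against 1.18, 11.4, 7.93 and 3.41 (2.57 ± 0.89, adjusted p = 0.0385 by limma). Ppbp, which platelets also carry, was at 69.9, 62.4, 97.6 and 39.6 against 21.2, 55.8, 27.7 and 12.8 (1.29 ± 0.40, adjusted p = 0.0237 by limma). Each of these 3 calls was lost without TAC-THZ1 replicate 1, without replicate 3 and without TAC-Veh replicate 4, and those of Cxcl1 and Cxcl5 also without TAC-Veh replicate 1. With both TAC-THZ1 replicates 1 and 3 left out, the log2 fold changes were 0.25 ± 0.32 for Cxcl1, 0.63 ± 0.75 for Cxcl5 and 0.93 ± 0.50 for Ppbp.

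Cxcl12, the ligand of Cxcr4 that holds neutrophils in the bone marrow, fell with constriction under vehicle, by 0.58 on the log2 scale (SE 0.12, adjusted p = 0.00126 by limma), and THZ1 in TAC left a difference of 0.11 ± 0.12 that was not called. Cxcr4 itself fell with THZ1 in TAC by 0.58 (SE 0.14, adjusted p = 0.00557 by limma). It was the only call among 13 other neutrophil receptor genes in that comparison, beside 29.4% of all genes in either direction. Cxcr4 fell by 0.53 without TAC-THZ1 replicates 1 and 3 (adjusted p = 0.0379 by limma), and Itgam, Itgb2 and Csf2rb2 were also called lower. The receptor sum of the group was highest in those replicates, so leaving them out lowers it by construction. With constriction under vehicle 5 of the 13 were called higher, beside 21.4% of all genes. They were led by Clec4d, a C-type lectin receptor of myeloid cells, at 2.74 ± 0.44 (adjusted p = 0.000117 by limma). Clec4d was at 107, 71.5, 38.6 and 28.1 normalized counts in TAC-Veh and at 81.9, 31.8, 75.7 and 26.7 in TAC-THZ1. The growth factor genes Csf3 and Csf2 were read at most 1.34 and 2.67 normalized counts, and Il17a had 0 reads, which is too few to compare groups at this depth.

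Among 9 tested partners and receptors of the secreted members, Tlr4 and its co-receptor Cd14, through which calprotectin acts, rose with constriction under vehicle by 0.96 ± 0.10 (adjusted p = 2.42e-06) and 0.97 ± 0.18 (adjusted p = 0.000361, both by limma). Slc22a17, which encodes a receptor of the Lcn2 protein, rose by 0.56 ± 0.12 (adjusted p = 0.00128 by limma), and the scavenger receptor gene Cd36 fell by 0.45. With THZ1 in TAC, Tlr4 fell by 0.48 (SE 0.10, adjusted p = 0.00256 by limma), opposite in sign to the difference of S100a8, and by 0.44 without TAC-THZ1 replicates 1 and 3 (adjusted p = 0.0232 by limma). Cd14 had a log2 fold change of -0.44 ± 0.18 and was not called, but it fell by 0.65 without those replicates (SE 0.21, adjusted p = 0.0350 by limma), where Cd33 was also called lower. Lrp2, the other known Lcn2 receptor, was at most 5.72 normalized counts.

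In the interleukin-1 system, 9 of 12 genes were tested. Il1r1, the signalling receptor of interleukin-1, rose with constriction under vehicle by 0.37 ± 0.12 (adjusted p = 0.0210 by limma), a call lost without TAC-Veh replicate 1 or 2 or Sham-Veh replicate 2. Gsdmd and Il33 were also called higher and Il1rl1 lower, and each call was lost on leaving out any of 5 or more of the 16 libraries. With THZ1 in TAC, the co-receptor gene Il1rap fell by 0.70 (SE 0.12, adjusted p = 0.000588 by limma), and by 0.71 without TAC-THZ1 replicates 1 and 3 (adjusted p = 0.00381 by limma). Pycard, the inflammasome adaptor, rose by 0.52 ± 0.17 (adjusted p = 0.0269 by limma), a call lost without TAC-THZ1 replicate 1 or 3 and without TAC-Veh replicate 1, 2 or 4. The decoy receptor gene Il1r2 was at 30.6, 0, 9.76 and 1.98 normalized counts in TAC-THZ1.

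Other S100 genes, which encode calcium-binding relatives of the alarmins expressed by muscle and stroma, had another pattern. With constriction under vehicle 7 of 8 tested were called higher, beside 21.4% of all genes. Among them S100a6 rose by 1.44 ± 0.19 (adjusted p = 1.85e-05), S100a4 by 1.15 ± 0.22 (adjusted p = 0.000591) and S100a11 by 0.96 ± 0.14 (adjusted p = 4.21e-05, all by limma). With THZ1 in TAC 5 of 8 fell, beside 14.2% of all genes called lower. These were S100a11 by 0.67, S100a10 by 0.66, S100a4 by 0.78, S100a16 by 0.29 and S100a6 by 0.60. Without TAC-THZ1 replicates 1 and 3, S100a11, S100a6 and S100a4 were still called lower, beside 1603 of all 13331 genes. On leaving out 1 library, the call of S100a4 was lost without TAC-Veh replicate 2, that of S100a6 without TAC-Veh replicate 1 or 2 or TAC-THZ1 replicate 2 or 4, and that of S100a16 without TAC-Veh replicate 2 or TAC-THZ1 replicate 1 or 2. None of the 12 S100 genes with a read had its highest library in TAC-THZ1 replicate 1 or 3.

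**Figure D4:**
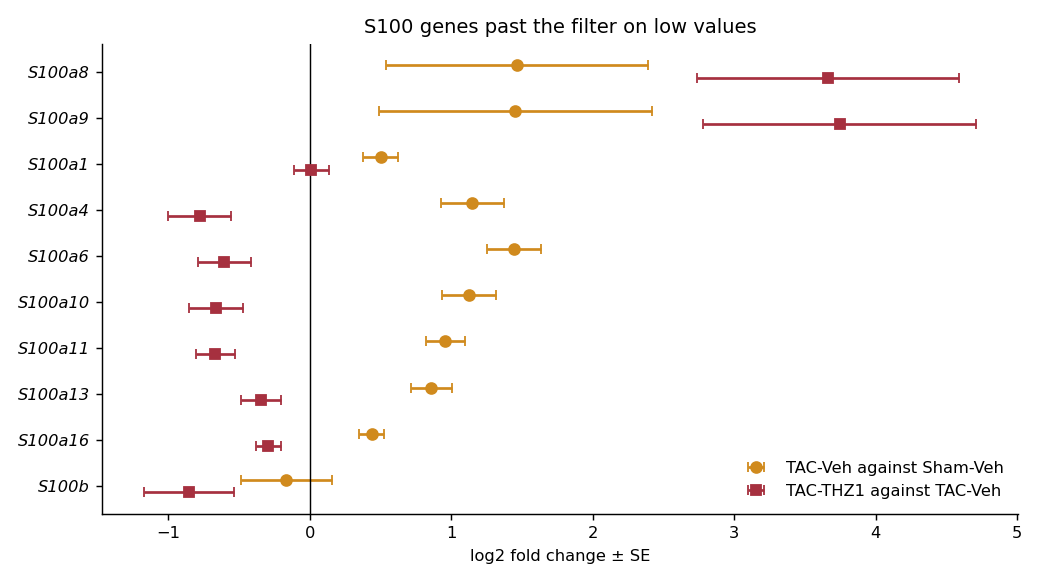
Log2 fold change with its SE from limma for S100a8, S100a9 and the 8 other S100 genes past the filter, for TAC-Veh against Sham-Veh (circles) and TAC-THZ1 against TAC-Veh (squares). For THZ1 in TAC, S100a8 and S100a9 lie at 3.66 and 3.75, and S100a4, S100a6, S100a10 and S100a11 between -0.78 and -0.60.

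The acute phase gene Saa3, which is known to be induced in inflamed tissue, was at 118, 16.5, 160.3 and 7.92 normalized counts in TAC-THZ1 and at most 6.44 in any other library, and it did not pass the filter. Of 7 acute phase genes tested, none was called higher with THZ1 in TAC and Cp and Serpina3n fell, beside 14.2% of all genes called lower. The call of Serpina3n was lost without TAC-Veh replicate 1 or 2 or TAC-THZ1 replicate 2 or 4. Osmr and Il4ra were called lower as well without TAC-THZ1 replicates 1 and 3. Those replicates held the group's highest acute phase sums, so leaving them out lowers the sum by construction. The genes most like the members in pattern, by Pearson's r with the mean of the 7 members over 16 libraries, were Slfn4 at 0.913, Hp at 0.910, Ifitm1 at 0.896, Cxcl13 at 0.890, Bpgm at 0.890, mt-Atp8 at 0.883, Hba-a1 at 0.881, Cyba at 0.880, Clec4e at 0.880 and Hbb-b2 at 0.877. All 10 had TAC-THZ1 replicates 1 and 3 as the highest libraries of that group. They were picked for likeness to the members, which have the same libraries highest, so this was largely set by the selection. Slfn4, a Schlafen gene of myeloid cells, was at 237, 21.6, 143 and 9.90 normalized counts in TAC-THZ1, and Cxcl13, a B cell chemokine, at 159, 11.5, 203 and 13.9. Reads of the globin genes can be shared with near-identical copies, and mt-Atp8 overlaps its neighbour.

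Markers of red blood cells and platelets moved with the same libraries, and those of B and T cells and of mast cells and eosinophils did not. The sum of 9 red blood cell marker genes was 31812, 7186, 18705 and 9058 normalized counts in TAC-THZ1 replicates 1 to 4, against 6466 to 7055 in Sham-Veh, 5738 to 10319 in Sham-THZ1 and 7821 to 13518 in TAC-Veh. All 9 had their highest library in TAC-THZ1 replicate 1 or 3, and 0 of the 8 tested were called with THZ1 in TAC. The sum of 8 platelet marker genes was 622, 459.6, 691 and 402 in TAC-THZ1 and 344 to 454 in TAC-Veh, with 7 of 8 genes highest in replicate 1 or 3. Mast cell and eosinophil markers summed to 157, 204, 208 and 247 in TAC-THZ1 and 132 to 297 in TAC-Veh. Of these 9 genes 2 were highest in TAC-THZ1 replicate 1 or 3, as were 2 of 9 B and T cell genes. Tpsb2 and Cpa3 were called higher with THZ1 in TAC, and on leaving out 1 library the calls held in 8 and 2 of 16 fits. The part of blood held in the pieces of tissue in these results was not tested.

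The sum of 11 macrophage marker genes was 14769, 7673, 13476 and 8907 in TAC-THZ1, against 10905.5 to 13358 in TAC-Veh, with 8 of 11 genes highest in TAC-THZ1 replicate 1 or 3. With THZ1 in TAC 0 of the 11 were called, and 5 fell without replicates 1 and 3, beside 1603 of all 13331 genes called lower. Those replicates held the group's highest macrophage sums, so leaving them out lowers the sum by construction. The monocyte marker sum was 4524, 2859, 5007 and 2982 in TAC-THZ1 and 4860.3 to 12019.6 in TAC-Veh. Of 6 monocyte genes tested, 0 were called higher with THZ1 in TAC and 2 lower, Vcan and Fn1, beside 14.2% of all genes called lower. Both were also lower in the interaction. The median log2 fold change of the 6 with THZ1 in TAC was 0.06, against 0.0145 for all genes. Of the 7 listed, 4 were highest in TAC-THZ1 replicate 1 or 3. Ly6c2, which did not pass the filter, was at 28.4, 2.55, 17.1 and 3.96 in TAC-THZ1 and at most 9.30 elsewhere. The sums of B and T cell markers were 77.5, 85.3, 102.5 and 129, and those of fibroblast markers 39367, 27895, 33015 and 33031, with replicates 1 and 3 not the highest pair in either. Fibroblast markers summed to 51523 to 91604 in TAC-Veh. With THZ1 in TAC 5 of 7 fibroblast markers were called lower, beside 14.2% of all genes, and 5 of 8 cardiomyocyte markers higher, beside 15.1%. These shifts go with the lower levels of other S100 genes, Tlr4, Anxa1 and Il1rap in that comparison. Their part in the levels of these genes and of the members was not tested.

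**Figure D5:**
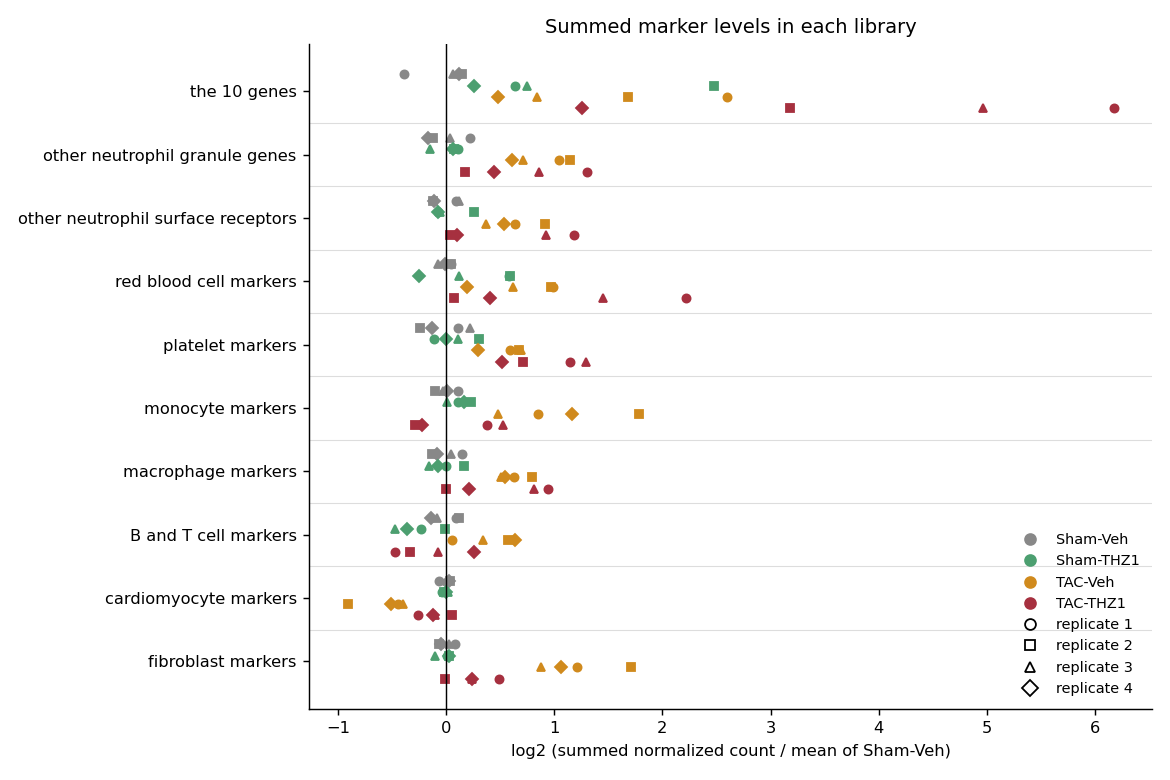
Log2 of the summed normalized counts of each marker list over the mean of Sham-Veh, with 1 point per library, colour for the group and shape for the replicate. The sum of the 10 genes reaches 6.18 and 4.97 in TAC-THZ1 replicates 1 and 3, and that of red blood cell markers 2.22 and 1.45 in the same libraries.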

How the data were processed

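RNA from ventricle tissue was sequenced as single-end 40-base reads from stranded poly(A) libraries. The authors aligned reads to mm9 with TopHat2 2.1.1, counted them per gene by strand with HTSeq and divided by DESeq2 size factors, and the deposited values are this signal, normalized counts per protein-coding gene. Multiplying by the size factors gave back whole reads for 100% of values (tolerance 0.001). No column was without a sample.

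The main test was limma 3.58.1 (R 4.3.3) with a trend on log2(normalized count + 1), 1 mean per group over all 16 libraries, for genes with at least 10 normalized counts in at least 4 libraries, with Benjamini-Hochberg adjustment over all genes of a comparison. Groups came from the labels. Count tests on the recovered reads with edgeR 4.0.16 and DESeq2 1.42.0, other filters, weights, a replicate block and leaving out each library were alternatives. In TAC-THZ1 against TAC-Veh, edgeR called 3981 genes and DESeq2 4170.0, against 3918 by limma, and each of the count tests called 5 members, where limma called 3. The fit was tested on simulated data. Python 3.11.15 with pandas 2.3.3, NumPy 2.4.6 and Matplotlib 3.10.9 handled tables and figures.

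Named genes were the members, the 10 genes most like them, at most 4 called genes a list and comparison, and partners, receptors and ligands of members. Ltf, Cd177, Chil3, Ly6g, Mpo, Elane, Fpr1, Fpr2, Il1r2, Ly6c2 and Saa3 were named after their values were seen, and further S100 genes likewise. Members and lists were chosen with earlier results of these data known. Same-numbered libraries did not deviate together (correlations of -0.431 to 0.117, 1 of 16 over 0.1), so the main fit used no pairing. The correlations cannot exclude a pairing of small effect.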

Additional observations from a re-analysis of the deposited data

Results flagged for a closer look

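In 7 of the 38 groups of 4 libraries examined, 1 library lay far from the others of its group by Dixon's test. The usual rate of about 1 group in 20 assumes independent normal values. It cannot be set beside this count, since the members moved together and unlogged normalized counts were used. Sham-THZ1 replicate 2 was high for S100a8, at 125.3 normalized counts with the next library at 24.04, and for S100a9, at 235.1 with the next at 38.17. TAC-Veh replicate 2 was high for Il1b, at 52.2 with the next at 15.28. Sham-Veh replicate 1 was low for Csf3r, at 35.01 with the next at 44.12. The other 3 rest on 1 read each: Ngp in Sham-Veh replicate 4 at 1.149, Camp in Sham-THZ1 replicate 4 at 1.013 and Camp in TAC-Veh replicate 2 at 0.715 normalized counts. No cause was tested for any of the 7.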

How the results depend on the processing

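Counts are of the 7 members past the filter that were called. For THZ1 in TAC the count was 3, and it was 5 with DESeq2 and with edgeR, 1 with only these groups in the fit and 0 with array weights. With no filter all 10 members were fitted and 5 were called, the same 3 with Ngp and Camp. Leaving out 1 library gave 3 to 5, with 5 without TAC-THZ1 replicate 4. For constriction under THZ1 it was 5, and 3 with array weights. Leaving out 1 library gave 1 to 6: 3 without Sham-THZ1 replicate 1 or 3, 2 without Sham-THZ1 replicate 4, 1 without TAC-THZ1 replicate 1 and 2 without TAC-THZ1 replicate 3. Both counts were 0 without TAC-THZ1 replicates 1 and 3, an alternative chosen after seeing the data that leaves out the group's highest libraries. For constriction under vehicle it was 1, and 3 with only these groups in the fit, 0 with robust variance or array weights, and 0 to 1 on leaving out 1 library. For THZ1 in sham it was 0, and 1 with only these groups in the fit. The interaction was 0, with 0 to 1 on leaving out 1 library and 1 without TAC-THZ1 replicate 4. The replicate block changed no count (1, 3, 0, 5 and 0). The causes were not tested, and no result changed direction among called values.

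Over all genes, THZ1 in TAC called 3918, against 1399 with only these groups, 2412 with array weights and 588 with a log2 fold change of at least 1. The share called higher was 51.5%, 41.7% with only these groups and 32.5% with the fold threshold. THZ1 in sham called 9, against 465 alone, 513 with weights and 33 with DESeq2, and 3 to 15 on leaving out 1 library. Constriction under THZ1 called 3220, against 5011 with weights, 270.0 with the fold threshold, 1011 without TAC-THZ1 replicates 1 and 3, and 1978 to 4200.0 on leaving out 1 library. The interaction called 1336, against 419 with the fold threshold and 690.0 to 2479 on leaving out 1 library. Constriction under vehicle called 6003, against 1068 with the fold threshold. At this depth Ngp, Camp and Mmp8 had too few reads outside TAC-THZ1 to pass the filter.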

Other observations

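Endothelial genes whose products capture white blood cells were also measured. Of 7 tested, 3 were called higher with constriction under vehicle, beside 21.4% of all genes. The P-selectin gene Selp rose by 2.34 ± 0.54 on the log2 scale (SE, adjusted p = 0.00240 by limma), the integrin ligand gene Icam1 by 0.79 ± 0.26 (adjusted p = 0.0194 by limma) and Cd34 by 0.76 ± 0.09 (adjusted p = 7.98e-06 by limma). The call of Icam1 was lost without Sham-Veh replicate 4 or TAC-Veh replicate 2. With THZ1 in TAC, Cd34 fell by 0.65 (SE 0.09, adjusted p = 0.000160 by limma) and Pecam1 fell by 0.40 (SE 0.11, adjusted p = 0.0128 by limma). Without TAC-THZ1 replicates 1 and 3, 4 of the 7 were called lower, beside 1603 of all 13331 genes. Cd34 then fell by 0.75, Pecam1 by 0.45, Icam1 by 0.70 and Selp by 1.55 on the log2 scale. The replicates left out held the group's highest sums of these genes, which lowers the sum by construction. Fibroblast marker sums were lower and cardiomyocyte marker sums higher in TAC-THZ1 than in TAC-Veh, and the part of that shift was not tested. Of 7 such genes with a read, 2 had their highest library in TAC-THZ1 replicate 1 or 3.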
